A study of Malus domestica with 12 samples.

Results

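The miR396 family of apple was described here by its 10 most abundant mature sequences in dormant buds. Members were the distinct sequences of the deposited table of known small RNAs whose first name is miR396, ranked by raw reads summed over 12 libraries. There were 16 such sequences among 370 distinct mature sequences in all, and the 10 kept held 49284 of 49327 miR396 reads (99.9%). Read totals therefore chose the members, and their order of abundance is a description. The last member, gma-miR396b-3p, had 47 reads, the first sequence left out had 17, and the 6 left out had 43 together. Names come from the databases that hold each sequence, so a member named after soybean (gma), Arabidopsis lyrata (aly), poplar (ptc), grapevine (vvi) or spruce (pab) is an apple read with that sequence.

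Libraries of small RNAs were made from apical floral buds of "Golden Delicious" spurs, collected at 4 stages of 1 winter with 3 libraries per stage, each a mix of 9 buds from 3 trees of the same age. Stage 1 was early endodormancy (665 chilling hours), Stage 2 late endodormancy (1098), Stage 3 early ecodormancy (1280) and Stage 4 late ecodormancy (1395). Small RNAs were isolated with their ARGONAUTE (AGO) proteins, so the reads are of loaded small RNAs. Libraries A to C were of Stage 1, D to F of Stage 2, G to I of Stage 3 and J to L of Stage 4, and as each stage was 1 date, stage and date cannot be told apart.

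In endodormancy a bud does not resume growth even in warmth, whereas in ecodormancy it is able to resume growth in warmth. miR396 is known in plants for cutting the mRNAs of GROWTH-REGULATING FACTOR (GRF) genes, whose transcription factors promote cell proliferation in young organs. Its hairpin precursor gives a 5p strand, the usual guide against GRF mRNAs, and a 3p strand from the opposite arm of the duplex. In Arabidopsis, miR319 acts on MIR396 genes through the transcription factor TCP4.

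The 10 sequences are shown because several differ by 1 base, on which the counts depend. Bases 2 to 8, the seed, are in capitals. The 5p members fell into 2 groups by seed, TCCACAG with 4 members and TCCACGG with 2, and 4 different seeds were found among the 3p members.
mdm-miR396d: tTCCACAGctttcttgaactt
mdm-miR396a: tTCCACAGctttcttgaacag
vvi-miR396b: tTCCACAGctttcttgaact
mdm-miR396b: tTCCACAGctttcttgaactg
mdm-miR396g: tTCCACGGctttcttgaactg
pab-miR396b: tTCCACGGctttcttgaactt
gma-miR396a-3p: tTCAATAAagctgtgggaag
aly-miR396a-3p: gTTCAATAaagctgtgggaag
ptc-miR396e-3p: cTCAAGAAagctgtgggaga
gma-miR396b-3p: gCTCAAGAaagctgtgggaga
The 4 members with seed TCCACAG held 37615 reads (76.3% of the member reads), and the 2 with TCCACGG held 3005 (6.10%). vvi-miR396b is mdm-miR396d or mdm-miR396b without the last base, and each of the 2 longer 3p members is a shorter one with 1 base more at its 5′ end, which moves the seed by 1 base. Whether reads with a mismatch were counted is not given in the sources used here, so reads of such near-identical members could in part be shared. An 18-base sequence that begins all 4 members with seed TCCACAG had 12 reads, so longer reads were not counted for shorter sequences.

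The table of hairpins found de novo placed 9 of the 10 members in 6 precursors on the GDDH13 v1.1 genome. These formed 3 pairs of near-identical hairpins. The hairpin of mdm-miR396b on chromosome 2 and that of mdm-miR396a on chromosome 15 shared 128 of 134 aligned bases (95.5%). The 2 hairpins of mdm-miR396d, on chromosomes 2 and 15, shared 106 of 109 (97.2%). The 2 hairpins of mdm-miR396g, on chromosomes 8 and 15, shared 102 of 112 (91.1%). Across these pairs the identity was 52.2% to 59.7%. On chromosome 2 the hairpins of mdm-miR396b and mdm-miR396d lay on opposite strands with 5873 bases between them, and on chromosome 15 those of mdm-miR396a and mdm-miR396d lay likewise with 8682 bases between them. pab-miR396b was in none of the 6.

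Of the 3 hairpins on chromosome 15, those of mdm-miR396a and mdm-miR396d are printed because they hold the most abundant 5p member and the most abundant 3p member. Capitals mark the bases of members, 5p first.
mdm-miR396a hairpin, chr15:12897098-12897231, plus strand: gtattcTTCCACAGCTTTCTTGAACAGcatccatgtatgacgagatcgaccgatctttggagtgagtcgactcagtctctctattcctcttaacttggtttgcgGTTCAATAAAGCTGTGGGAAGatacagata
mdm-miR396d hairpin, chr15:12905914-12906022, minus strand: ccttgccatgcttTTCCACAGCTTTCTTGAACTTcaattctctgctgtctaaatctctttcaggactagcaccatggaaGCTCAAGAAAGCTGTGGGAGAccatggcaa
The predicted folding energy was -52.2 kcal/mol for the first and -53.9 kcal/mol for the second. In the fold, 19 of the 21 bases of mdm-miR396a and 20 of the 21 of mdm-miR396d were paired. A gene annotation of GDDH13 v1.1 was not used here. In the RefSeq annotation of another assembly, GDT2T_hap1, 3 genes are named for miR396, MIR396B on chromosome 2 and MIR396A and MIR396F on chromosome 15, and each overlaps 1 gene of a long noncoding RNA.

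**Figure D1:**
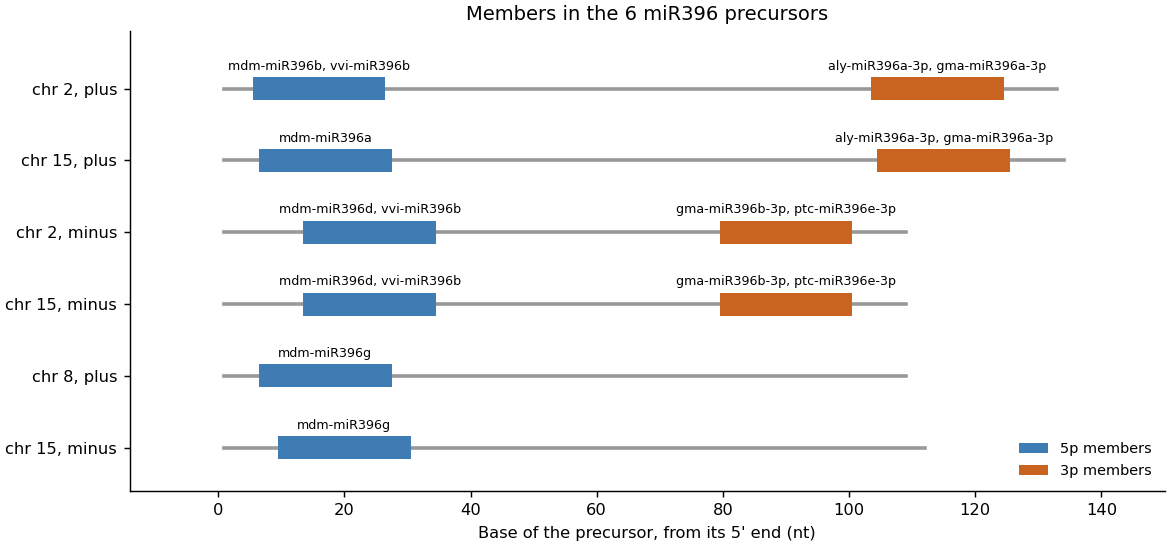
Positions of the members in the 6 precursors, in bases from the 5′ end of each precursor; lines are precursors, blue boxes hold 5p members and orange boxes 3p members. The 2 hairpins of mdm-miR396g hold no 3p member.

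Mature reads per library ranged from 561723 to 2307267, and a count of 0 allowed a level of up to 1.30 to 5.34 CPM, the counts of a sequence scaled to library size, of mature reads (3 counts). The miR166 family, by far the most abundant, took 66.2% to 91.4% of them. Libraries D and L stood apart, with miR166 shares of 89.9% and 91.4% (66.2% to 86.8% in the other 10) and a read for 174 and 191 sequences (235 to 276 in the other 10). The comparisons were therefore also made without them. Levels are CPM normalized by the trimmed mean of M values (TMM), with no correction for length, as members have 20 or 21 bases. Intervals cover counting error only, since reads copied by PCR are not independent molecules.

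mdm-miR396d was the most abundant member, with 30784 reads (62.5% of the member reads) and rank 16 of 370 sequences. Its CPM in the 3 libraries of Stage 1 were 3145, 3552 and 2884. At Stage 2 they were 854, 2059 and 2224. At Stage 3 they were 1839.7, 1448 and 1699.5, and at Stage 4 they were 1527, 1845 and 1409. All 3 libraries of Stage 1 were thus above the other 9 in TMM-normalized CPM. This held for 1 of the 9 tested members and for 1.26% of the 238 sequences tested. The mean was 3193 ± 337 CPM (SD, n = 3) at Stage 1 and 1712 ± 748, 1662 ± 199 and 1593 ± 226 at the later stages. With edgeR's quasi-likelihood test, the log2 fold change against Stage 1 was -0.90 for Stage 2, -0.94 for Stage 3 and -1.003 for Stage 4, each with an SE of 0.37. The unadjusted p were 0.0244, 0.0191 and 0.0134. After Benjamini-Hochberg adjustment over all 238 sequences they were 0.963, 0.414 and 0.249 by edgeR, so that none passed 0.05. Without libraries D and L, the log2 fold changes were -0.81, -0.98 and -0.84, with adjusted p of 0.290, 0.0656 and 0.128 by edgeR. Scaled by the total of mature reads instead of TMM, levels at Stage 1 overlapped with those at Stages 2 and 4. The log2 fold changes were then -0.65, -0.33 and -0.39, with unadjusted p of 0.212, 0.518 and 0.439 by edgeR. In bulk buds, fewer cells with the small RNA and less of it per cell cannot be told apart.

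mdm-miR396a, whose sequence differs from that of mdm-miR396b at 1 base (A20T, counted from the 5′ end), was the second 5p member with 5161 reads. Its levels were 482, 481 and 424 CPM at Stage 1 and 559.5, 218 and 399.9 at Stage 2. They were 299, 215 and 304 CPM at Stage 3 and 154, 212 and 346 at Stage 4. Library E, at 218 CPM, was the single endodormancy library below the highest ecodormancy library, L at 346 CPM. The log2 fold change was -0.96 (SE 0.45) at Stage 4 against Stage 1, with an unadjusted p of 0.0428 and an adjusted p of 0.411 by edgeR. For ecodormancy (Stages 3 and 4) against endodormancy (Stages 1 and 2) it was -0.74 (SE 0.32), with an unadjusted p of 0.0278 and an adjusted p of 0.405 by edgeR.

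vvi-miR396b, the 20-base form, had 867 reads and varied widely within Stages 1 and 3. It was at 55.96, 0.830 and 56.3 CPM at Stage 1 and at 59.7, 38.6 and 71.1 at Stage 2. At Stage 3 it was at 36.4, 7.39 and 39.3 CPM, and at Stage 4 at 73.2, 86.4 and 153. The 3 libraries of Stage 4 were above the other 9, as in 2.52% of all sequences tested, and library B held a single read. mdm-miR396b had 803 reads, at 44.3, 33.2 and 59.3 CPM at Stage 1 and 138, 14.6 and 16.8 at Stage 2. At Stage 3 it was at 23.1, 16.002 and 26.6 CPM, and at Stage 4 at 43.3, 23.8 and 189. Its highest values were those of D (138 CPM) and L (189 CPM), and the other 10 libraries lay between 14.6 and 59.3 CPM.

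Among the members with seed TCCACGG, mdm-miR396g had 2829 reads and pab-miR396b had 176. mdm-miR396g was at 208, 259 and 123 CPM at Stage 1 and at 437, 122 and 231 at Stage 2. At Stage 3 it was at 116, 124 and 83.6 CPM, and at Stage 4 at 79.4, 51.5 and 422. Again D (437 CPM) and L (422 CPM) were the highest, and the other 10 reached 259. pab-miR396b was read between 0 and 37 times per library. It was at 0 reads in D and 1 read in C and in L, and at 4.92 to 22.1 CPM in the other 9.

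The most abundant 3p member, gma-miR396a-3p, had 5774 reads, more than any 5p member but mdm-miR396d. Its CPM were 343, 245 and 243 at Stage 1 and 474, 243 and 276 at Stage 2. At Stage 3 they were 647, 298 and 621, and at Stage 4 151, 259 and 529. The highest 2 libraries were G and I of Stage 3, but H of the same stage was within the range of Stage 1. aly-miR396a-3p, the form with 1 base more, had 1452 reads and ranged from 41.3 to 161 CPM, with its highest value in library I as well. Over the 12 libraries the log2 CPM of these 2 forms had a Pearson r of 0.73, which is a description, as they share hairpins, depth and all but 1 base.

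ptc-miR396e-3p, from the arm opposite mdm-miR396d, had 1391 reads and, in fold, the widest range of the 3p members tested, from 1.36 to 332 CPM. It was at 94.7, 63.9 and 46.2 CPM at Stage 1 and at 26.2, 38.6 and 15.8 at Stage 2. At Stage 3 it was at 147, 27.1 and 332 CPM, and at Stage 4 at 112, 89.6 and 1.36. Library H lay within the range of Stage 2, and the 2 reads in L came to 1.36 CPM. Its log2 fold change at Stage 3 against Stage 2 was 2.65 (SE 1.00), with an unadjusted p of 0.0149 and an adjusted p of 0.253 by edgeR. Without library L the adjusted p was 0.0433 by edgeR, the single setting in which a member passed 0.05. In that fit 8 of all 243 sequences tested passed, against 2 of 238 in the main fit. Across the 12 libraries, the log2 CPM of ptc-miR396e-3p and the miR166 share had r = -0.80, against -0.55 to 0.73 for the other 8 tested members. The part of the miR166 share in its changes was not tested. gma-miR396b-3p was read in 6 libraries, at most 15 times, and did not pass the filter on low counts.

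**Figure D2:**
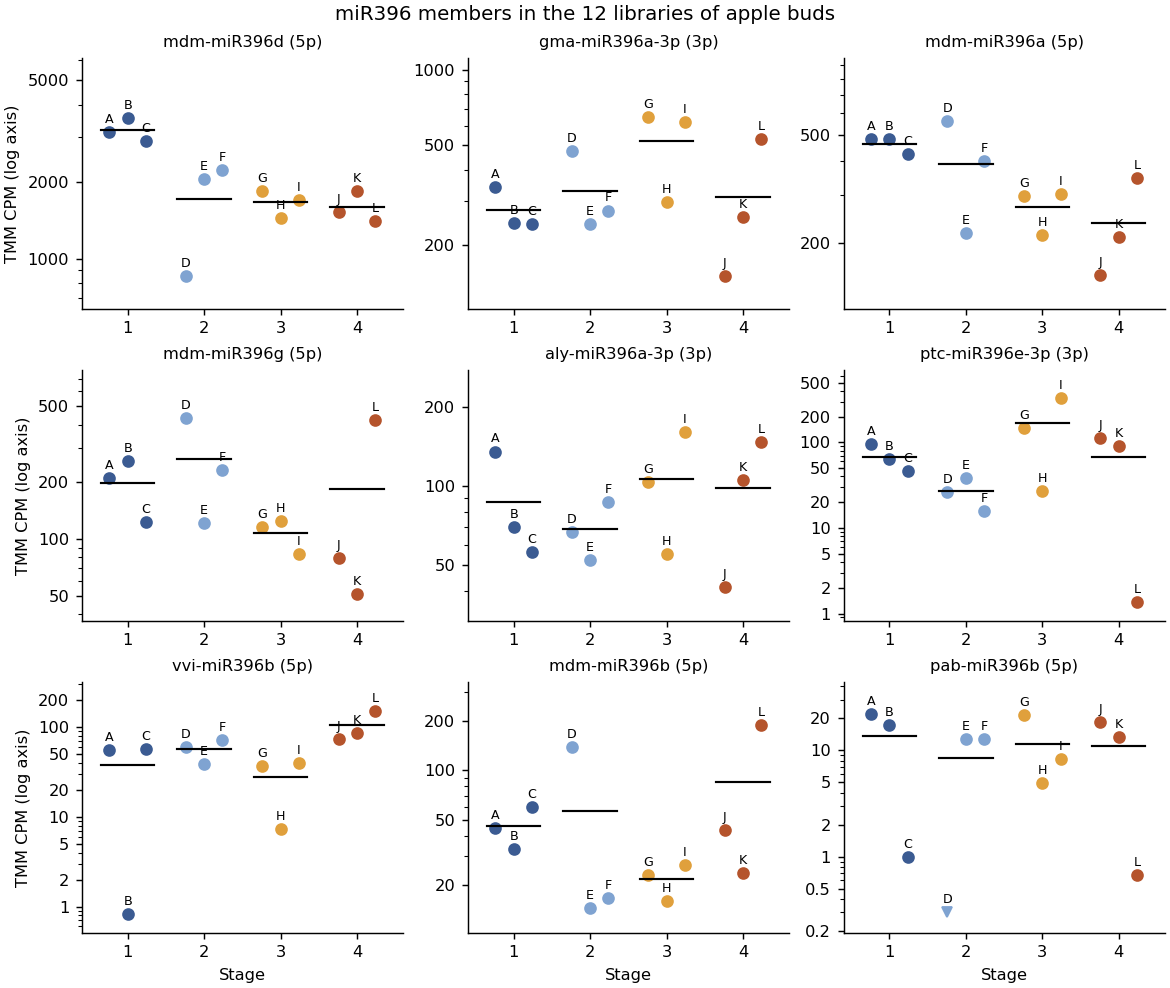
Level of the 9 tested members in each library, as TMM-normalized CPM on a log axis, by stage; letters are libraries, black lines are means of 3 libraries and the triangle is a library with 0 reads. mdm-miR396d is at 2884 to 3552 CPM in A, B and C and at 854 to 2224 in the other 9, and the 2 highest values of mdm-miR396g and mdm-miR396b are those of D and L.

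Across the whole table, 9 of the 10 members were tested, and 0 of them passed an adjusted p of 0.05 by edgeR in any of 8 comparisons. The share of all 238 sequences that passed was 1.26% for any change among the stages. It was 0% for Stage 2 against 1, 0.42% for Stage 3 against 1 and 1.26% for Stage 4 against 1. It was 0.84% for Stage 3 against 2, 2.52% for Stage 4 against 2, 0.42% for Stage 4 against 3 and 1.26% for ecodormancy against endodormancy. At these low shares a count of 0 among 9 does not set the members apart. DESeq2 and edgeR's likelihood ratio test also called 0 members in each of the 8 comparisons.

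At an unadjusted p of 0.05 or less, the members counted by edgeR were few. For any change it was mdm-miR396d alone, where 10.9% of all sequences had such a p. Its adjusted p was 0.305 by edgeR. mdm-miR396d was also the single member at Stage 2 against Stage 1, with a background of 5.04%, and at Stage 3 against Stage 1, with 9.66%. At Stage 4 against Stage 1 it was joined by mdm-miR396a, with a background of 10.5%. ptc-miR396e-3p was the single member at Stage 3 against Stage 2, where the background was 10.1%, and mdm-miR396a the single member between the phases, where it was also 10.1%. There were 0 at Stage 4 against Stage 2 (7.14%) and 0 at Stage 4 against Stage 3 (11.8%). The comparisons with Stage 1 share its 3 libraries. These counts depended on the processing: over the other settings, including those without 1 library, they ran from 0 to 3 for each comparison with Stage 1, 0 to 2 for each of the other 3 pairs of stages, 0 to 4 between the phases and 0 to 5 for any change.

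Between the phases, 4 members had a negative log2 fold change and 5 a positive one. That of mdm-miR396d was -0.52 (SE 0.26, unadjusted p = 0.0583, adjusted p = 0.487 by edgeR). Under the other scalings it ran from -0.53 to -0.036, the latter with the total of mature reads (unadjusted p = 0.920 by edgeR). That of ptc-miR396e-3p was 1.31 (SE 0.68, unadjusted p = 0.0654, adjusted p = 0.487 by edgeR). mdm-miR396g had -0.69, gma-miR396a-3p 0.42 and aly-miR396a-3p 0.40, with SE of 0.46, 0.34 and 0.46. Single libraries moved these values, that of mdm-miR396g to -1.37 without L (adjusted p = 0.0767 by edgeR) and to -0.16 without D. The values of vvi-miR396b (0.23), mdm-miR396b (-0.23) and pab-miR396b (0.06) were smaller than their SE of 0.67, 0.66 and 1.16. The 3 3p members tested were all above 0 and the 3 most abundant 5p members all below 0, none of them past the adjusted threshold.

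**Figure D3:**
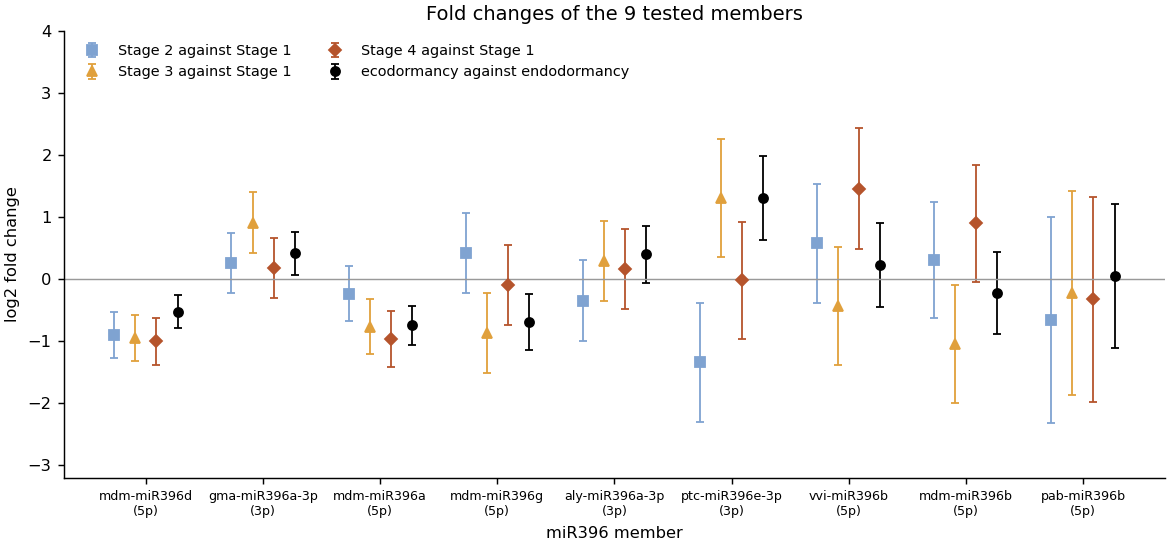
log2 fold change of the 9 tested members against Stage 1 and between the phases, from edgeR; bars are 1 standard error. mdm-miR396d lies between -1.003 and -0.52 in the 4 comparisons, and the errors grow towards the less abundant members on the right.

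Without libraries D and L, more members came under an unadjusted p of 0.05, and so did more of the other sequences. For any change, 5 of 9 members did so, against 23.1% of the 242 sequences then tested by edgeR. They were mdm-miR396d, gma-miR396a-3p, mdm-miR396a, ptc-miR396e-3p and mdm-miR396g, with adjusted p of 0.0942 to 0.203 by edgeR. At Stage 2 against Stage 1 there were 3 (mdm-miR396d, mdm-miR396b and mdm-miR396a), where the share of all sequences was 12.4%. At Stage 3 against Stage 1 there were 3 (mdm-miR396d, mdm-miR396a and gma-miR396a-3p), with 16.1%, and at Stage 4 against Stage 1 there were 3 (mdm-miR396a, mdm-miR396g and mdm-miR396d), with 19.8%. At Stage 3 against Stage 2 there were 2 (ptc-miR396e-3p and gma-miR396a-3p), with 14.9%. There was 1 at Stage 4 against Stage 2 (ptc-miR396e-3p), with 13.6%, and 1 at Stage 4 against Stage 3 (gma-miR396a-3p), with 14%. Between the phases 4 of 9 did so, against 19.8% of all sequences, with log2 fold changes of 1.72 for ptc-miR396e-3p, -0.999 for mdm-miR396g, -0.51 for mdm-miR396d and -0.63 for mdm-miR396a. Their adjusted p were 0.0882 to 0.183 by edgeR, and 0 members passed an adjusted p of 0.05 in any of the 8 comparisons.

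Libraries D and L differed from the other 10 in the make-up of the family as well. mdm-miR396d took 32.7% of the member reads in D (95% Wilson interval 31.0% to 34.4%) and 44.1% in L (42.7% to 45.5%), and 51.7% to 75.2% in the others. Of the 9 members, 2 were higher in both D and L than in every other library (mdm-miR396g and mdm-miR396b), against 5.46% of all sequences. Another 2 were lower in both than in every other library (mdm-miR396d and pab-miR396b), against 13.9%. pab-miR396b had 0 reads in D and 1 read in L, but also 1 read in C. It was lower in L (0.678 CPM) than in C (1.005 CPM) only through the scaling to library size. The ratio of mdm-miR396d to mdm-miR396b reads, which differ by T21G, was 6.16 in D and 7.46 in L and 34.8 to 137 in the others. These ratios are within a library and do not depend on the scaling between libraries.

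**Figure D4:**
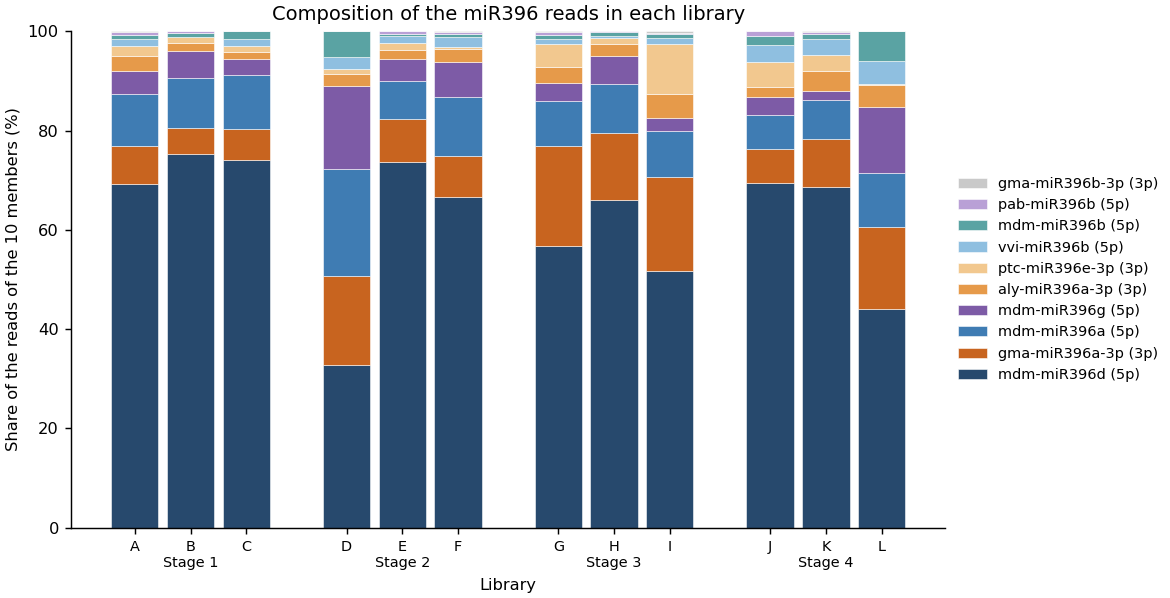
Share of each member in the reads of the 10 members, in percent, for each of the 12 libraries grouped by stage. mdm-miR396d is the largest part in every library and smallest in D (32.7%) and L (44.1%), where mdm-miR396g and mdm-miR396b take more.

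Together the 10 members made up 0.355% ± 0.0320 (SD, n = 3) of the mature reads at Stage 1, 0.265% ± 0.0863 at Stage 2, 0.358% ± 0.0353 at Stage 3, and in late ecodormancy 0.311% ± 0.0926. The lowest shares were those of D (0.167%) and L (0.204%), and the other 10 libraries lay between 0.297% and 0.388%. Of the reads outside the miR166 family, they made up 2.32%, 1.92%, 1.36% and 1.96% at the 4 stages. The order of the stages thus depended on whether miR166 was counted, and a sum over members chosen by their reads was given no test.

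The balance of the 2 arms was then described by stage, with no test. The 3p members held 9.90% ± 2.55 (SD, n = 3) of the member reads at Stage 1, 15.03% ± 5.75 at Stage 2, 26.5% ± 8.53 at Stage 3, and 17.4% ± 3.68 in late ecodormancy. By library they were 12.8%, 8.01% and 8.88% at Stage 1 and 21.7%, 11.9% and 11.5% at Stage 2. At Stage 3 they were 27.9%, 17.3% and 34.2%, and at Stage 4 13.9%, 17.0% and 21.2%. Every library of Stage 3 and Stage 4 was above every library of Stage 1, though the Wilson intervals of J (12.5% to 15.4%) and A (12.1% to 13.6%) overlap.

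The arms were also compared within hairpins, a grouping made after the values had been seen and likewise given no test. Hairpins that hold mdm-miR396d gave mainly 5p reads, with 30784 reads of mdm-miR396d and 1438 of its 2 3p partners (4.46% 3p). The hairpins that hold mdm-miR396a or mdm-miR396b gave about as many reads from each arm, with 5964 of the 2 5p members and 7226 of the 2 3p members (54.8% 3p). The 3p members cannot be divided between the chromosome 2 and chromosome 15 hairpins, since both contain them. vvi-miR396b was left out, as it is in hairpins of both kinds.

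In the mdm-miR396a and mdm-miR396b hairpins, the 3p share was 47.6%, 37.9% and 38.3% in the libraries of Stage 1 and 43.6%, 55.9% and 46.5% in those of Stage 2. It was 70.0%, 60.4% and 70.3% at Stage 3 and 49.3%, 60.8% and 55.9% at Stage 4. The 3 libraries of Stage 3 were above all 6 of endodormancy and overlapped with Stage 4 through H and K. All 6 of ecodormancy were above the 3 of Stage 1, though the Wilson intervals of J (44.3% to 54.4%) and A (45.2% to 50.0%) overlap. The means were 41.3% ± 5.48, 48.7% ± 6.43, 66.9% ± 5.62 and 55.3% ± 5.73 (SD, n = 3). D and L were at 43.6% and 55.9%, inside the range of the other 10. In the mdm-miR396d hairpins, the 3p share stayed between 0.967% and 3.18% in the 6 libraries of endodormancy. In ecodormancy it ran from 0.0962% in L (Wilson interval 0.0264% to 0.350%) to 16.7% in I (15.5% to 18.1%). There G, I, J and K were above all of endodormancy, and H and L were not.

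**Figure D5:**
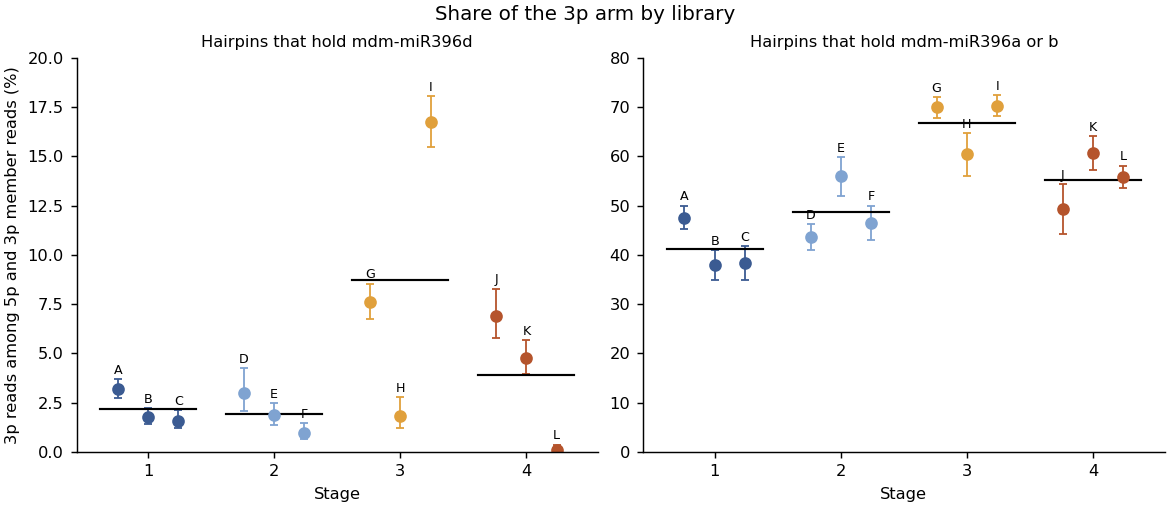
3p reads as a percentage of the 5p and 3p member reads of the same hairpins, by stage, with linear axes that start at 0 and differ between the panels; letters are libraries, bars are 95% Wilson intervals for counting error and black lines are means of 3 libraries. On the right, the 3 libraries of Stage 3 lie at 60.4% to 70.3% and those of Stage 1 at 37.9% to 47.6%.

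Ratios between near-identical members were compared between the phases by an exact permutation test over all 924 splits of 6 against 6 libraries, two-sided, for which the smallest possible p is 0.00216. There were 10 pairs, 9 of them 1 base apart and 1 of the most abundant 5p with the most abundant 3p member, and 0 had a p of 0.05 or less. Without D, or without D and L, there was 1. The exact p were 0.169 to 0.976, and 0.743 to 0.976 after adjustment over the 10 pairs. A token such as A7G gives the base of the first member, its position from the 5′ end and the base of the second. The lowest exact p, 0.169, was that of mdm-miR396g to mdm-miR396b (G7A), whose mean log2 ratio was 2.44 ± 0.99 in endodormancy and 1.66 ± 0.80 in ecodormancy (SD, n = 6). mdm-miR396d to gma-miR396a-3p had a mean log2 ratio of 2.93 ± 1.07 in endodormancy and 2.14 ± 0.82 in ecodormancy, with an exact p of 0.177 (n = 6 per phase). The difference of this pair was -0.79, and it was -1.21 without D (exact permutation p = 0.0216, adjusted 0.216) and -1.06 without D and L (exact permutation p = 0.0397, adjusted 0.397). For mdm-miR396d to pab-miR396b (A7G) the difference was -0.89 with an exact permutation p of 0.314, and for mdm-miR396g to pab-miR396b (G21T) -1.30 with an exact permutation p of 0.403. The latter lay at -2.28 without L and -0.34 without D. With 0 reads of pab-miR396b in D and 1 in C and in L, both ratios in these libraries depend on the 0.5 reads added to each count. gma-miR396a-3p to aly-miR396a-3p differed least, by 0.01, at 1.99 ± 0.51 and 2.00 ± 0.47. A p that misses the threshold does not show that the ratios were the same.

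Outside the family, the sequences whose log2 CPM ran most like those of the leading 5p and 3p members over the 12 libraries were named by Pearson r, as a description among 229 tested sequences that share these libraries and their scaling. For mdm-miR396d they were a 24-base sequence found de novo, t03271250_x5800 (r = 0.83), and cpa-miR166d (0.73), mdm-miR11011b (0.71), ahy-miR167-5p (0.70) and mdm-miR1511 (0.70). For gma-miR396a-3p they were t00614980_x824 (r = 0.81), mdm-miR858 (0.69), mdm-miR159d (0.68), peu-miR2910 (0.68) and bdi-miR393a (0.67). No sequence was in both lists, and the 2 members themselves had an r of -0.34.

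The miR319 family, which in Arabidopsis acts upstream of MIR396 genes, had 21 sequences listed, of which 12 were tested. In each of the 8 comparisons 0 of them passed an adjusted p of 0.05 by edgeR. With no adjustment of the p at 0.05, 1 passed for any change (10.9% of all sequences), 2 were higher at Stage 3 against Stage 1 (9.66%) and 1 was higher at Stage 3 against Stage 2 (10.1%). At that p, 1 was lower at Stage 4 against Stage 3 (11.8%), 1 was higher between the phases (10.1%), and there were 0 in the other 3 comparisons. The median log2 fold change of the 12 was 0.93 at Stage 3 against Stage 1 and 0.90 at Stage 3 against Stage 2, where that of all 238 sequences was 0.15 and 0.14. It was -0.68 at Stage 4 against Stage 3 and 0.31 between the phases, where that of all sequences was 0.01 and 0.07. mdm-miR319a, its most abundant sequence with 118311 reads, had a log2 fold change of -0.32 (SE 0.25, adjusted p = 0.746 by edgeR) between the phases. At Stage 3 it had -0.16 against Stage 1 and -0.42 against Stage 2, opposite in sign to the medians of the 12.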

How the data were processed

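The authors mapped the reads to GDDH13 v1.1 and counted them with Mir-Island, and the deposited tables hold raw counts per mature sequence in 12 libraries, without normalization. The submitters' processing notes name CASAVA and Bowtie 0.12.9. Trimming, mismatches allowed and the treatment of reads with several loci are not given in the sources used here.

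The tables give 254 known sequences and 199 hairpin loci with 154 distinct sequences, of which 38 were in both tables. The tables hold 4 emptied lines, which were not analysed here, and 48 further columns of values per library, which were not used. Columns carry library numbers, which the study's tables pair with letters and stages. Stage 3 was placed in ecodormancy, as the labels do, although shading in a plot of the study puts its date in endodormancy, and each comparison of the phases rests on this placement. As nothing ties a column to a replicate number, these were not used.

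The main test was edgeR 4.0.16 (R 4.3.3), a quasi-likelihood F test with TMM, in 1 fit of the 12 libraries with a mean for each stage. Sequences were kept by filterByExpr (minimum count 10, minimum total 15), which left 238, and p were adjusted by Benjamini-Hochberg over all of them at a threshold of 0.05. Alternatives were DESeq2 1.42.0, edgeR's likelihood ratio test, 4 other scalings, 2 other filters, known sequences alone, only the stages compared, and fits without single libraries or without D and L. Libraries of a stage differed by 24.8 to 555 times the counting noise (chi-square per degree of freedom), so no library was counted as a copy of another. The study describes them as biological replicates. Log2 ratios had a pseudocount of 0.5 reads. Precursors were folded with RNAfold 2.7.2. SciPy 1.17.1, pandas 2.3.3, NumPy 2.4.6 and Biopython 1.88 in Python 3.11.15 were used, and the tests were tested on simulated data.

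Members, lists and tests were chosen with earlier results of these data known. Named sequences are the 10 members, the 5 tested sequences outside the family with the largest r with each leading member, and the most abundant miR319.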

Additional observations from a re-analysis of the deposited data

Results flagged for a closer look

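In 24 groups of 6 libraries (the levels of the members and 2 shares, in each phase), 5 had a highest or lowest library farther from the rest than Dixon's 95% limit of 0.625 of the range. That limit is for independent values of 1 normal distribution. The groups share libraries, and each pools 2 stages, so no chance rate is set beside the count. All 5 were library D or L. These libraries also had the smallest TMM factors, 0.640 for D and 0.639 for L, against 0.779 to 1.69 in the others. A small factor raises CPM relative to the total of mature reads. The flagged levels are TMM-normalized, whereas the flagged shares do not depend on the scaling. The part of the scaling in the flagged levels was not tested. In ecodormancy, mdm-miR396g was at 422 CPM in library L and at 51.5 to 124 in the other 5. mdm-miR396b was at 189 CPM in L and at 16.002 to 43.3 in the other 5. In endodormancy, mdm-miR396b was at 138 CPM in D and at 14.6 to 59.3 in the other 5. The share of the 3p arm in the member reads was 21.7% in D and 8.01% to 12.8% in the other 5 libraries of endodormancy. The share of the members in the mature reads was 0.204% in L and 0.318% to 0.383% in the other 5 of ecodormancy. D and L were also the libraries with the largest miR166 shares, 89.9% and 91.4%, and the part of these in the 5 values was not tested.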

How the results depend on the processing

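No paired analysis was possible because the columns carry no replicate number. Other scalings moved all sequences between the phases by 0.10 (median of ratios), 0.49 (total of mature reads), -0.01 (total outside miR166) and 0.17 (read totals listed by the study) on the log2 scale relative to TMM. The count of members called was 0 under every alternative but 1, the fit without library L, in which ptc-miR396e-3p was called at Stage 3 against Stage 2 (adjusted p = 0.0433 by edgeR), so leaving out 1 library gave 0 to 1. That fit called 8 of 243 sequences in this comparison, against 2 of 238 in the main fit. The log2 fold change of ptc-miR396e-3p was 1.77 to 3.03 with 1 library left out and 1.90 to 3.14 under the other scalings. For mdm-miR396d at Stages 2, 3 and 4 against Stage 1, leaving out 1 library gave -1.15 to -0.81, -1.02 to -0.83 and -1.14 to -0.82, and the other scalings gave -0.98 to -0.58, -1.08 to -0.33 and -0.99 to -0.39. All stayed below 0, as did mdm-miR396a between the phases (-0.88 to -0.38 and -0.75 to -0.25). So did mdm-miR396d between the phases (-0.57 to -0.36 and -0.53 to -0.036). mdm-miR396b between the phases turned to 0.22 with the total of mature reads, 0.049 with the study's read totals and 0.16 without D and L, and lay at -0.89 to 0.91 with 1 library left out. With 1 library left out, mdm-miR396g lay at -1.37 to -0.16, gma-miR396a-3p at 0.16 to 0.79, aly-miR396a-3p at 0.22 to 0.78, pab-miR396b at -0.34 to 0.55 and vvi-miR396b at -0.046 to 0.53. For the pairs, the values here are differences of the mean log2 ratio, ecodormancy minus endodormancy. The difference for ptc-miR396e-3p to gma-miR396b-3p turned from -0.33 to 0.44 with a pseudocount of 5 reads and to 0.32 without D and L. It lay at -1.09 to 0.18 with 1 library left out. Leaving out 1 library also turned the differences for gma-miR396a-3p to aly-miR396a-3p (-0.12 to 0.18), mdm-miR396d to mdm-miR396b (-1.01 to 0.16) and vvi-miR396b to mdm-miR396b (-0.090 to 1.27). With 1 library left out, the difference for mdm-miR396d to gma-miR396a-3p lay at -1.21 to -0.60. That for mdm-miR396d to pab-miR396b lay at -1.45 to -0.41 and that for mdm-miR396d to vvi-miR396b at -1.63 to -0.10. For mdm-miR396g to pab-miR396b it lay at -2.28 to -0.34. Outside miR166 the shares of the members became 2.32%, 1.92%, 1.36% and 1.96%. For any change, DESeq2 called 19 of all 238 sequences and edgeR's quasi-likelihood test 3, and 11 of 370 were called with no filter. The causes were not tested.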
